A study of Mus musculus with 12 samples.

Results

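The cytosolic ribosomal protein genes of mouse regulatory T cells (Treg) were defined by name. Every gene whose symbol reads Rps or Rpl and a number, with the letter or paralog suffixes of the family, and Rpsa, Rplp0, Rplp1 and Rplp2, was taken, without entries marked as pseudogenes. This gave 84 of the 36222 genes in the table, 33 of the small subunit and 51 of the large subunit. Each name stood for 1 gene ID, so no measured value chose a member. RNA was sequenced from 4 groups of 3 libraries, and each comparison asks how these genes differ with the loss of Ikaros or with a short stimulation. All mice carried the Foxp3-IRES-YFP-Cre allele, which drives Cre recombinase and a yellow fluorescent protein in cells that express Foxp3. The WT group had intact Ikzf1, which encodes Ikaros, a zinc finger transcription factor of lymphocytes, and the Ikzf1 cko group was homozygous for a floxed Ikzf1 allele, so that deletion was limited to Foxp3-expressing cells. Spleen CD4+ T cells of individual mice were sorted for YFP and used ex vivo, or after 4 h on wells coated with antibodies against CD3 and CD28, both at 1 µg/ml. Mice used ex vivo were matched in age at 6 to 8 weeks, and the labels give no sex. Ex vivo cells were not cultured, so culture and stimulation cannot be told apart.

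A ribosome has a small subunit, which decodes the message, and a large subunit, which joins the amino acids, and each protein is needed in about equal number. Most mammalian ribosomal protein messages begin with a C and an unbroken run of pyrimidines, the 5′ terminal oligopyrimidine (TOP) motif, through which the kinase mTOR controls their translation. Resting T cells make few ribosomes, and activated T cells make many more before they divide. Ribosomal protein genes also have many processed pseudogenes, which are near copies of their messages elsewhere in the genome.

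RefSeq start sites (GRCm38.p6) were at hand for 62 of the 84 genes. At 13 of these 62 (21%), the annotated message opened with a C and at least 5 pyrimidines in a row, against 3.01% of 27025 genes. Windows of 30 bases across the start, 15 before it and 15 from it, are shown for 6 of the 13. Rps27, Rps15a and Rps18 were called lower in Ikzf1 cko Treg ex vivo, and Rps15a also after stimulation. Of 12 fits that left out 1 library, 8 kept the ex vivo call of Rps27, 1 that of Rps15a and 1 that of Rps18. Rps6 carries the phosphorylation sites of the S6 kinases, and Rps10 and Rpl38 were not called in any comparison. Capitals mark the pyrimidine run that begins at the first base of the message.
Rps27 (chr3:90213634-90213663, minus strand): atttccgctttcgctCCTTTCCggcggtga
Rps15a (chr7:118116133-118116162, minus strand): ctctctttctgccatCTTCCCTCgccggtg
Rps18 (chr17:33955651-33955680, minus strand): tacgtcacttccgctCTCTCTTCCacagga
Rps6 (chr4:86857353-86857382, minus strand): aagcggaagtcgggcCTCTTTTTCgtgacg
Rps10 (chr17:27635230-27635259, minus strand): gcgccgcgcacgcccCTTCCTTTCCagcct
Rpl38 (chr11:114668565-114668594, plus strand): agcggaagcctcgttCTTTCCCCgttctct

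Letters of known factors were also searched in the promoters, 250 bases before to 50 after the start. CCGGAAG, a core of ETS family sites, stood on either strand in 25 of 62 members (40.3%) and in 9.93% of all promoters. AAGATGGC, the core of the YY1 site, stood in 6 (9.68%) against 3.19%. TATAAA on the sense strand stood in 9.68% and 9.77%. TGGGAA, a core bound by Ikaros, stood on either strand in 15 members (24.2%) and in 28.3% of all promoters, and its shorter form AGGAA in 80.6% and 69.8%. These are matches of letters in a window and not measured binding.

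The libraries held 8208659 to 20247649 reads assigned to genes, and the 82 tested members had at least 28 reads in every library. A single repeat-rich gene model, Gm10800, took 17.7% to 39.8% of the summed TPM of the WT and 20.4% to 24.4% of the cko libraries ex vivo. After stimulation it took 32.6% to 44.4% (WT) and 42.9% to 55.9% (cko). TPM (a level per annotated exonic base of the gene, given as parts of a fixed total) was therefore divided by a factor for each library, and this value is called scaled TPM below. Ikzf1 fell by 1.52 ± 0.11 (SE) on the log2 scale in cko against WT ex vivo (adjusted p = 5.45e-05) and by 1.29 ± 0.11 after stimulation (limma, adjusted p = 0.000161). The 8 Treg markers examined summed to 1034 to 2923 TPM. Markers of CD8 T cells, B cells, myeloid cells, dendritic cells, NK cells, erythroid cells and plasma cells summed to at most 25.8 TPM in any library and list. Of the activation genes, Egr2 rose by 1.48 ± 0.15 in WT after stimulation (limma, adjusted p = 5.12e-05) and Myc by 0.61 ± 0.15 (adjusted p = 0.0113). Cd69 fell by 1.36 ± 0.20 (limma, adjusted p = 0.000517), from a mean of 364 TPM in the ex vivo cells. Of the 7 control genes, which include these, Ikzf1 and Gm10800, 2 were called higher and 3 lower in WT after stimulation. WT ex vivo replicate 3 held 179 TPM of Xist against at most 1.36 TPM in the other libraries, so its sex differed from theirs.

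The levels of the 84 genes differed widely. In all 12 libraries TPM followed reads divided by all annotated exonic bases of a gene, which in the median of 83 members were 1.78 times and in 35 members over 2 times the length of the coding transcript looked up. A level is therefore lower where the annotation holds more bases, and a change between groups is taken at 1 length. Rplp1, an acidic protein of the large subunit stalk, was highest, with a mean of 1592 TPM over the 12 libraries. Rpl8 (741 TPM) and Rpl4 (666 TPM) of the large subunit and Rps15 (634 TPM) of the small subunit followed. The 5 highest members together held 39.8% to 44.2% of the summed TPM of the members in each library. Of the other stalk proteins, Rplp0, which anchors the stalk, had 539 TPM and Rplp2, the partner of Rplp1, had 21.5 TPM. Part of the gap between the partners is length, since Rplp2 is divided by 2072 exonic bases for a transcript of 421 and Rplp1 by 495 for 495, with means of 428 and 7743 reads. The lowest were Rpl10l (1.65 TPM), Rpl39l (2.73), Rpl3l (4.03), Rpl36a (4.18) and Rps4y2 (4.86). All but Rpl36a of these are variants named after another member. Rpl10l and Rpl39l stayed under the 5 TPM needed in at least 1 group for testing.

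**Figure D1:**
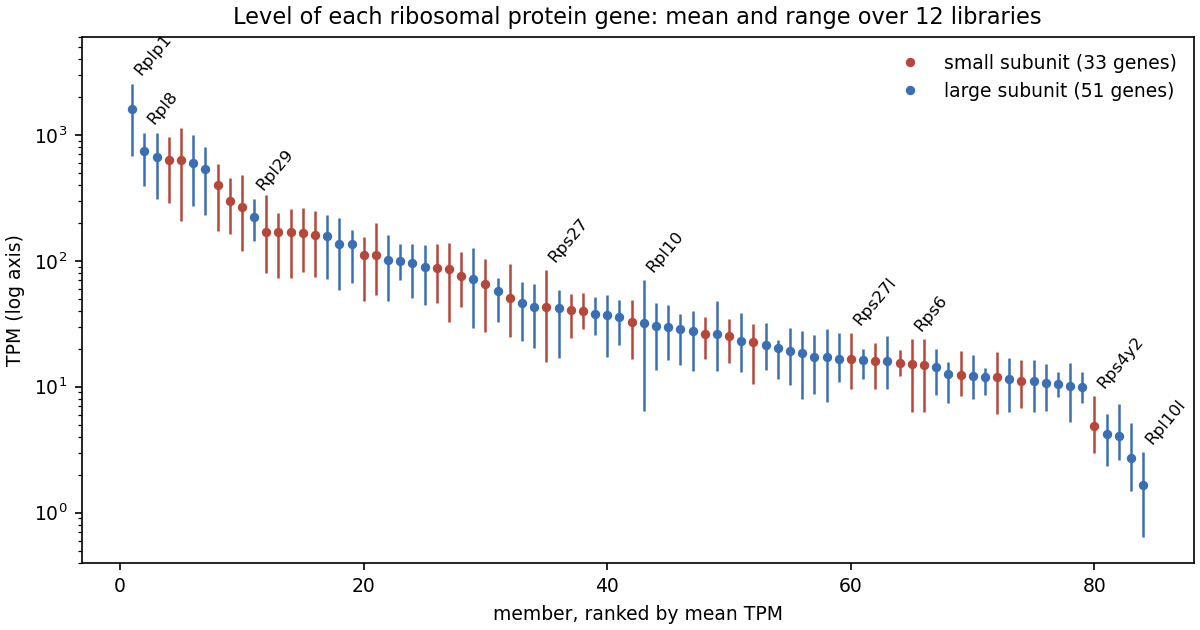
Mean TPM (points, log axis) of the 84 ribosomal protein genes in rank order, with bars from the lowest to the highest of the 12 libraries and colours for the subunits. Rplp1 stands at 1592 TPM and Rpl10l at 1.65 TPM, and the 3 highest and 4 lowest members are of the large subunit.

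Many of these genes cannot be read in full with short reads. For 83 members with an annotated transcript, each stretch of 51 bases, the length of a read, was looked up in the genome (NCBIM37, the mm9 build). The median member had 36.7% of its windows unique, 27 members had under 20%, and 79 had at least 1 matching locus elsewhere. Rps27 had 0.339% of its windows unique, Rps12 1.93%, Rps6 5.31% and Rpl10 5.74%, so the levels of these 4 rest on few places or on the mate of a pair. Rpl24 was unique throughout. Across the 83 members, mean TPM had a Spearman rho of 0.15 with the share of unique windows, 0.28 with the share of exonic bases that are unique and -0.29 with exonic bases, given as descriptions over genes that share libraries. Genes named as ribosomal protein pseudogenes, 170 in all, summed to 3929 to 7038 TPM in the WT ex vivo libraries. Their 56 tested members had a median log2 difference of -0.31 between genotypes ex vivo and -0.49 with stimulation in WT, and whether reads passed between genes and pseudogenes was not tested.

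The share of the members in the transcriptome was described without a test. As a percent of the TPM of all tested genes other than Gm10800, the members held 1.92%, 1.55% and 1.9% in WT ex vivo replicates 1 to 3. The cko libraries ex vivo held 1.67%, 1.45% and 1.65%. After stimulation the share was 1.58%, 1.62% and 1.66% for WT and 1.44%, 1.44% and 1.22% for cko. Groups overlapped except that all cko stimulated libraries lay below all of the others. The median member on the log2(scaled TPM + 1) scale was ex vivo at 5.53 ± 0.16 (SD, n = 3) for WT and 5.20 ± 0.14 for cko, and after stimulation at 4.84 ± 0.07 for WT and 4.65 ± 0.06 for cko. On this scale no libraries of different groups overlapped. The measures weigh the genes differently, since the sum follows the few most abundant members and the median counts each member once.

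**Figure D2:**
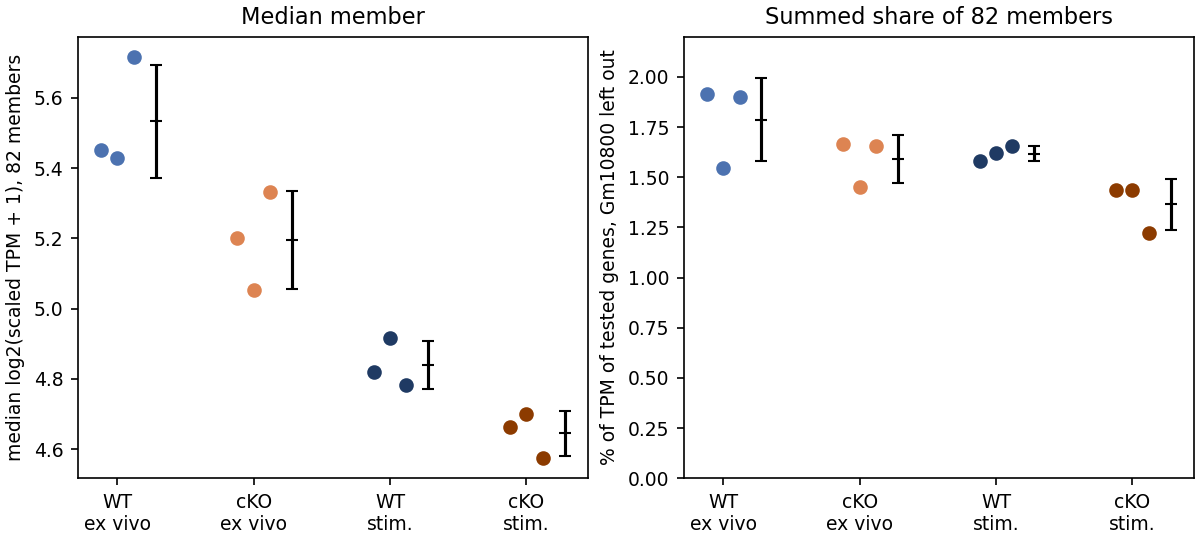
Left, the median of the 82 tested members on the log2(scaled TPM + 1) scale, 1 point per library, with mean and SD beside each group. Right, the summed share of the members in the TPM of the tested genes without Gm10800, in percent. The medians fall from 5.53 in WT ex vivo to 4.65 in cko stimulated without overlap, and the shares of the first 3 groups overlap.

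In WT Treg most ribosomal protein genes of both subunits were lower after stimulation. Of 82 tested members, 58 were lower and 1 was higher after 4 h (limma, adjusted p under 0.05), and 23 were not called. Among all 13318 tested genes, 19.3% were called lower and 12.7% higher. The median member had a log2 change of -0.64, against 0.0021 over all tested genes. In the small subunit 25 of 33 were lower (median -0.69), and in the large subunit 33 of 49 (median -0.61). In WT 8 members had a log2 change below -1, 5 of the small and 3 of the large subunit. Without scaling 16 members were lower. Quantile normalization gave 34 lower and 7 higher, and turned abundant members such as Rpl8 (0.43), Rps15 (0.36) and Rplp0 (0.23) to called increases. As bulk RNA was measured, fewer cells with a message and less of it in each cell cannot be told apart. Scaled TPM is relative to the other tested genes of a library, and the amount of RNA per cell was not measured. Lower therefore means a lower level relative to other genes.

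Rpl10, which is added late to the large subunit and completes its catalytic centre, changed most. Its scaled TPM was 63.6, 51.8 and 59.7 in WT ex vivo and 12.2, 13.4 and 13.8 after stimulation. In cko Treg it was 48, 36.9 and 45.7 ex vivo and 11.5, 14.4 and 8.75 after stimulation. The stimulated libraries lay far below the ex vivo ones in both genotypes, with a log2 change of -2.07 ± 0.16 (SE) in WT (limma, adjusted p = 7.72e-06) and -1.84 ± 0.16 in cko (adjusted p = 1.04e-05). Rps27, a zinc finger protein of the small subunit, was at 75.6, 63.3 and 89.4 in WT ex vivo and 22.8, 21.5 and 24.8 in WT stimulated. Its log2 change was -1.67 ± 0.14 in WT (limma, adjusted p = 1.50e-05). Rps12, at 86.3, 59.9 and 87.2 ex vivo and 28.1, 28.9 and 36.2 after stimulation, had a log2 change of -1.28 ± 0.18. These 3 genes are among those with few unique windows. Rpl3, which shapes the catalytic centre of the large subunit, changed by -1.13 ± 0.15 and Rps25, which helps viral and some cellular messages start translation, by -1.09 ± 0.15, each with all WT stimulated libraries below all WT ex vivo libraries.

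Among the other members with known roles, Rps6 had a log2 change of -0.96 ± 0.10 in WT, from 21.6, 22.2 and 22.8 scaled TPM to 10.2, 10.6 and 11.9. Rps3, which lines the entry of the messenger RNA channel, had -0.67 ± 0.18. Rpl5, which with Rpl11 and 5S ribosomal RNA can hold the p53 ligase Mdm2, had -0.52 ± 0.12 and was called lower, and Rpl11 had -0.28 ± 0.14 and was not called. Rpl13a changed by -0.56 ± 0.17, Rps19, the gene most often mutated in Diamond-Blackfan anaemia, by -0.46 ± 0.12, and Rps27a, which is made as a fusion with ubiquitin, by -0.75 ± 0.10, and all 3 were called lower. Rpl38 had -0.35 ± 0.22 and was not called. The stalk base Rplp0 changed by -0.70 ± 0.15, Rplp2 by -0.59 ± 0.09 and Rpsa, also known as the laminin receptor, by -0.64 ± 0.10. Rplp1 had -0.57 ± 0.21 and missed the threshold (limma, adjusted p = 0.0553). Of the 58 genes called lower, 41 remained so without each library in turn and 14 in all other processing alternatives. A change of sign in some alternative was seen for 7 of them. Without WT ex vivo replicate 3 the adjusted p (limma) rose to 0.108 for Rpl13a, 0.064 for Rps19 and 0.0532 for Rps3. The call of Rpl36a, counted among the 58, was also lost without this library. Rpl36a met the filter of 5 TPM only through WT ex vivo, so its fall is a description.

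A few members did not follow. Rps27l, a paralog of Rps27 that is induced by p53, was the 1 member called higher in WT, from 11.5, 11.9 and 15.5 scaled TPM ex vivo to 23.7, 20.4 and 19.4 after stimulation. The log2 change was 0.67 ± 0.17 (limma, adjusted p = 0.0128), and without WT stimulated replicate 1 the adjusted p was 0.0518. Rpl29, a small protein on the surface of the large subunit, was at 216, 193 and 241 before and 244, 212 and 257 after (0.13 ± 0.14). Rpl36 had 0.06 ± 0.12, Rpl7l1 0.12 ± 0.11 and Rpl13 -0.02 ± 0.12, and none of these was called. The levels of these genes overlapped between ex vivo and stimulated WT libraries.

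**Figure D3:**
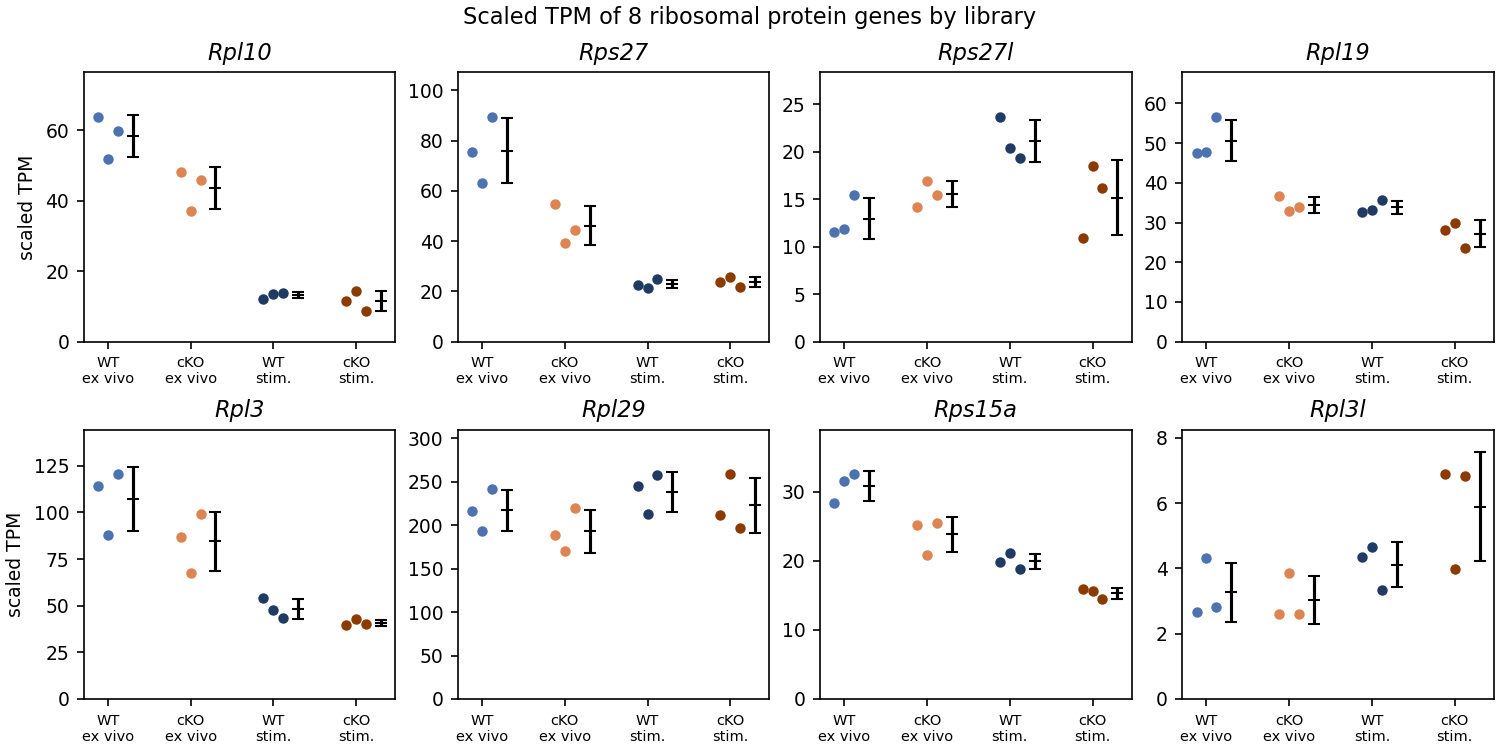
Scaled TPM of 8 members in every library (points), with mean and SD of each group of 3. Rpl10, Rps27 and Rpl3 lie far lower after stimulation in both genotypes, Rps27l rises in WT, and Rpl29 stays between 170 and 258.

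In Ikzf1 cko Treg, 49 of 82 members were lower and 2 were higher after stimulation, against 26.5% lower and 17.3% higher among all tested genes. The median log2 change was -0.53, with -0.58 in the small and -0.51 in the large subunit. Without scaling 61 members were lower. Quantile normalization gave 23 lower and 9 higher with a median of -0.11, and turned members such as Rpl4 (0.14) and Rplp0 (0.17) to positive changes. Of the 49 called lower, 37 remained so without each library in turn and 20 in all other processing alternatives, and 11 changed sign in some alternative. Rpl10, Rpl3, Rps3a and Rps25 were among the 5 largest falls. Rps3a went from 194, 202 and 209 scaled TPM to 97.2, 106 and 99.9, a log2 change of -0.99 ± 0.10 (limma, adjusted p = 2.44e-05). Of the members called higher, Rpl3l, a paralog of Rpl3 known from muscle, had 2.62, 3.87 and 2.6 scaled TPM ex vivo and 6.88, 3.98 and 6.83 after stimulation, with 44 to 79 reads per library. Rpl3l met the filter of 5 TPM only through cko stimulated, with a mean of 5.27 TPM against 3.02 to 4.42 TPM in the other groups, so its difference of 0.76 ± 0.24 is given as a description. Its call was lost with TPM as deposited, quantile normalization, genes down to 1 TPM or no filter, and without cko ex vivo replicate 1 or 3 or cko stimulated replicate 3, and it fell under the filter without cko stimulated replicate 1. The receptor genes that T cells do not use had a median of up to 1.19 TPM in these libraries, so Rpl3l, Rps4y2 and Rpl10l were near or a few times above the level of silent genes.

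Of the 58 members lower in WT, 46 (79.3%) were also called lower in cko, beside 83.2% of the 2574 tested genes lower in WT, and 3 members were called lower in cko alone. Of all tested genes 16.1% were lower in both. The 2 comparisons share no libraries. The difference itself, the interaction of genotype and stimulation, was called for none of the 82 members, higher or lower (limma), where 0.451% and 0.653% of all tested genes were called. At an unadjusted p under 0.05 there were 6 of 82 members, beside 1925 of all 13318 tested genes, and voom on the recovered reads also called 0 members. The median interaction was 0.13, and it was -0.15 with genes down to 1 TPM, -0.16 with no filter and -0.39 with TPM as deposited. Leaving out each library in turn gave 0.0285 (without cko ex vivo replicate 2) to 0.1943 (without cko ex vivo replicate 3). The lowest adjusted p was that of Rps27 (interaction 0.75 ± 0.20, adjusted p = 0.113), which in cko went from 54.8, 39.4 and 44.4 scaled TPM to 23.8, 25.8 and 21.6. The cko libraries started lower and ended at the level of WT. When genes under 10 TPM were left out, 3 of 79 members passed the threshold, Rps27 and Rpl27a among them, beside 337 of 8088 tested genes.

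**Figure D4:**
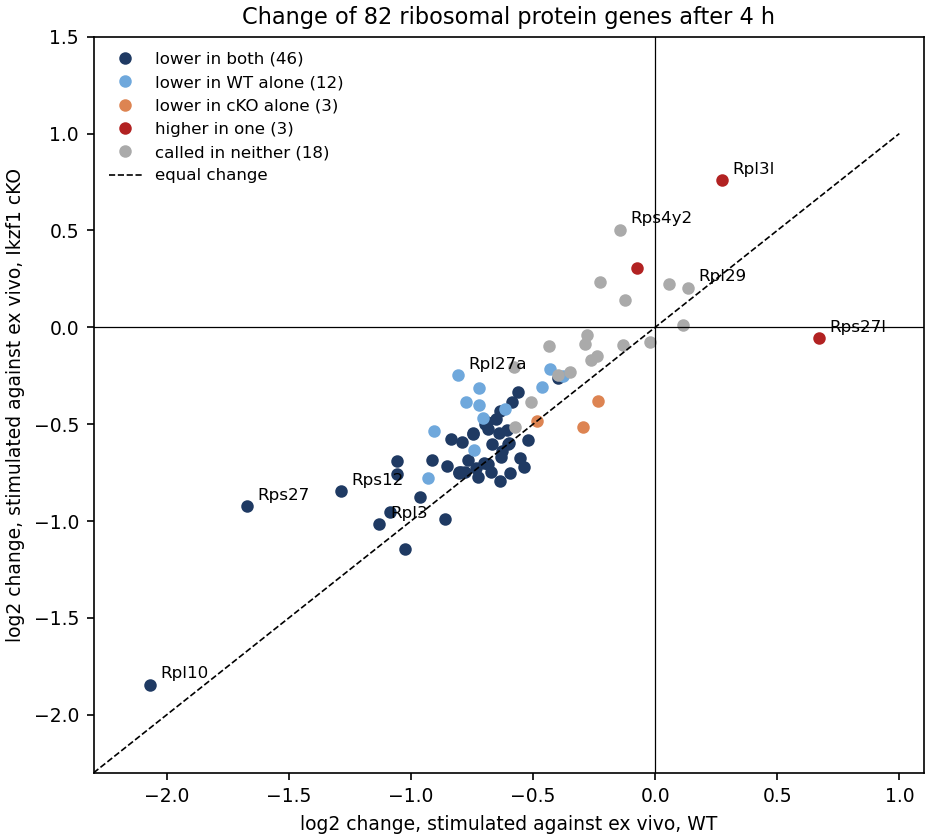
Log2 change with stimulation of each of the 82 tested members in WT (horizontal) and Ikzf1 cko Treg (vertical), coloured by which comparison called it, with a dashed line where both changes are equal. Of the genes, 46 were lower in both, Rpl10 lies at -2.07 and -1.84, and Rps27l lies alone on the right at 0.67.

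Fewer members differed between the genotypes. In ex vivo cko Treg 10 of 82 members were lower than in WT (12.2%) and none was higher (limma), beside 1.67% and 3.62% of all tested genes. At an unadjusted p under 0.05 there were 39 of 82 members, all lower, beside 2384 of all 13318 tested genes in either direction. Voom on the recovered reads called 19 members lower and 0 higher, beside 1203 of all tested genes. The median member had a log2 difference of -0.32, against -0.01 over all genes. Of the called genes 6 were of the small and 4 of the large subunit. The count rested on single libraries, being 2 without WT ex vivo replicate 3, the library of the other sex, 2 without cko ex vivo replicate 2, 3 without cko ex vivo replicate 3, and 5 or 6 without WT ex vivo replicate 1 or 2, cko ex vivo replicate 1, any of the WT stimulated libraries or cko stimulated replicate 2. It was 0 when TPM was not scaled or when genes down to 1 TPM were tested. Summed B cell markers also stood higher in cko ex vivo, at 18.6 to 25.8 TPM against 11.6 to 14.9 TPM in WT, with Ms4a1 and Cd79a at means under 2 TPM in both groups, and their part in the result was not tested.

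Rps27 again differed most, at 54.8, 39.4 and 44.4 scaled TPM in cko against 75.6, 63.3 and 89.4 in WT, without overlap (log2 difference -0.71 ± 0.14, limma, adjusted p = 0.0178). Rpl19, a large subunit protein that bridges the 2 subunits, was at 36.8, 32.8 and 33.8 against 47.6, 47.7 and 56.5 (-0.54 ± 0.10, adjusted p = 0.0132). Rpl6 was at 51, 46.2 and 50.8 against 61.4, 64.6 and 70.2 (-0.40 ± 0.08, adjusted p = 0.0121). It was the 1 called member that remained called without each library in turn, and the highest adjusted p of the other 9 lay between 0.0583 (Rpl19, without cko ex vivo replicate 3) and 0.157 (Rpl39, without WT ex vivo replicate 3). Rpl39, which lies in the exit tunnel of the large subunit, had -0.52 ± 0.13, Rps13 -0.49 ± 0.12, Rps27a -0.41 ± 0.10, Rpl9 -0.38 ± 0.08, Rps15a -0.36 ± 0.09 and Rps18 -0.31 ± 0.08. The calls of Rpl39, Rps13, Rps15a and Rps18 were lost with the replicate block. In each of the called genes named here every cko library lay below every WT library. Rpl22l1 (-0.58 ± 0.22) and Rps7 (-0.54 ± 0.30) had differences as large but spread more. Rps7 was at 257, 156 and 357 in WT and 208, 109 and 202 in cko, and the groups overlapped.

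After stimulation, 2 members were lower in cko than in WT (2.44%) and none was higher (limma), beside 3.63% and 3.3% of all genes. At an unadjusted p under 0.05, 22 of 82 members were lower and 1 was higher, beside 3166 of all 13318 tested genes in either direction. Voom called 5 members lower and 0 higher, beside 1247 of all tested genes. Rps15a was at 15.9, 15.6 and 14.4 scaled TPM in cko and 19.8, 21.1 and 18.9 in WT (-0.36 ± 0.09, limma, adjusted p = 0.0419). Rps3a was at 97.2, 106 and 99.9 against 119, 147 and 127 (-0.37 ± 0.10, adjusted p = 0.0447). Neither group pair overlapped. The count was 0 without WT ex vivo replicate 2 or 3, cko ex vivo replicate 1 or 3, WT stimulated replicate 2 or 3, or cko stimulated replicate 1 or 3. It was 1 without cko ex vivo replicate 2 or WT stimulated replicate 1, and 4 without cko stimulated replicate 2. The median difference was -0.19, against -0.03 over all genes. It was -0.0816 with quantile normalization, -0.0845 with genes above 10 TPM and -0.1185 with the silent receptor median subtracted. With genes down to 1 TPM it was -0.49, and with TPM as deposited -0.48. Rpl13a had a difference of -0.51 ± 0.17 and was not called, and Rps4y2 had 0.65 ± 0.27 and Rpl3l 0.41 ± 0.24 in the other direction, also not called. Rps15a was the 1 member called lower in cko in both states, and both calls were lost with the replicate block. The ex vivo call was kept in 1 and the stimulated call in 2 of the 12 fits that left out a library. Summed B cell markers were at 15.6 to 20.7 TPM in cko stimulated and 11.7 to 16.9 TPM in WT stimulated, Cd79b, the 1 tested of 5, was higher in cko (0.96 ± 0.23, limma, adjusted p = 0.0283), and their part in the result was not tested.

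**Figure D5:**
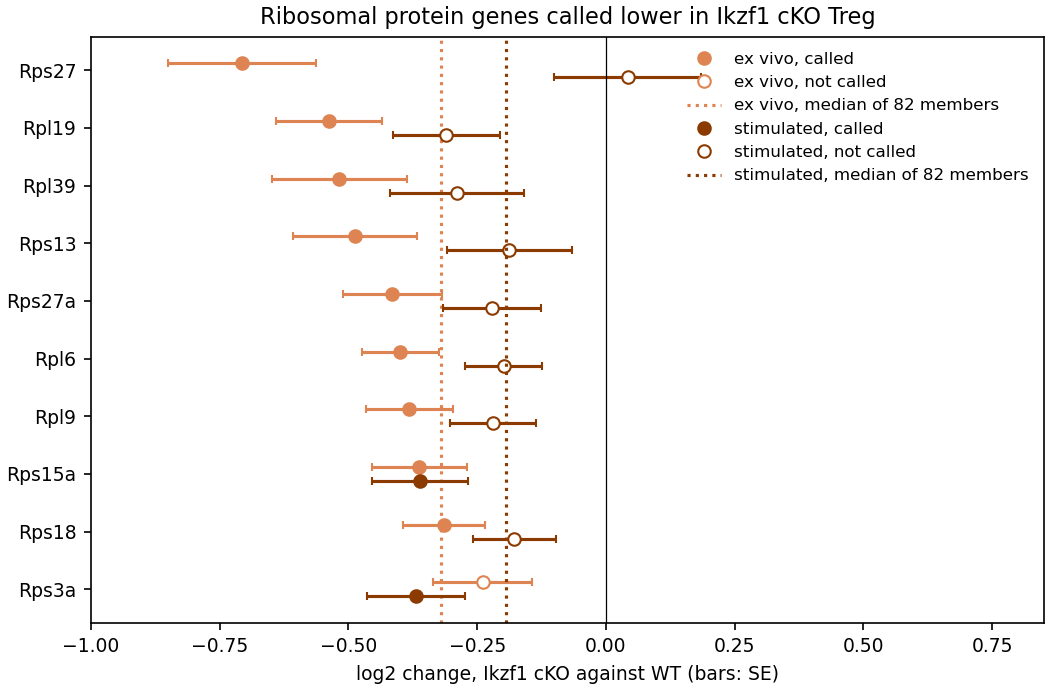
Log2 difference of Ikzf1 cko from WT, with SE, for 10 members called lower ex vivo or after stimulation. Filled points were called, open points were not, and dotted lines give the median of the 82 members. Rps27 lies at -0.71 ex vivo and 0.04 after stimulation, and Rps15a at -0.36 in both.

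Members were compared for the shape of their levels over the 12 libraries. The Pearson r of a member with the mean of the others had a median of 0.92 over 82 members, and 48 were above 0.9, a description in which the libraries of a group share its shift. Rpl3l (-0.76), Rps4y2 (-0.47), Rps27l (-0.40), Rpl29 (-0.13) and Rpl7l1 (-0.05) were least like the rest, and 4 of these 5 are paralogs of another member.

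The balance within paralog pairs was taken as a ratio of TPM in each library, whose size also depends on the exonic bases annotated for each gene. The ratio of Rps27l to Rps27 was 0.152, 0.188 and 0.173 in WT ex vivo and 1.04, 0.95 and 0.783 after stimulation. In cko it was 0.259, 0.429 and 0.349 ex vivo and 0.459, 0.717 and 0.748 after stimulation. The ratio was higher after stimulation in every WT library than in any WT library ex vivo. With 0.339% unique windows in Rps27 against 83.4% in Rps27l, the ratio compares the reads assigned to each and does not give the balance of the messages. Rpl22l1, which in T cell development has effects opposed to those of Rpl22, stood at 0.679 ± 0.103 (SD, n = 3) of Rpl22 in WT ex vivo and 0.66 ± 0.172 after stimulation, since both fell. Rpl7l1 went from 0.0826 ± 0.00618 to 0.156 ± 0.023 of Rpl7 in WT. Rpl39l, Rpl3l, Rpl10l and Rps4y2 stayed under 0.5 of their partner in every library.

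The 4 X-linked members, Rpl10, Rpl39, Rps4x and Rpl36a, were all called lower with stimulation in WT, with log2 changes of -2.07, -0.92, -0.73 and -0.78. Rpl36a met the filter of 5 TPM only through WT ex vivo (mean 5.61 TPM), so its change is a description. In WT ex vivo replicate 3, with Xist, their scaled TPM of 59.7, 29.7, 255 and 6.42 lay within the range of the other WT ex vivo libraries for Rpl10 and Rpl36a and above it for Rpl39 and Rps4x.

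Genes that work beside the ribosomal proteins were counted from lists, to be read beside the 19.3% lower and 12.7% higher among all tested genes in WT and the 26.5% lower in cko. Of 4 ribosomal proteins that the name rule leaves out, Gnb2l1 (Rack1, a scaffold on the small subunit; -0.63 ± 0.14) and Rpl36al were lower with stimulation in WT and in cko. Of 17 other messages that carry the TOP motif, mostly elongation and initiation factors, 12 were lower in WT and 13 in cko after stimulation, with median changes of -0.55 and -0.61. Hnrnpa1, a splicing factor, fell by 1.59 ± 0.15 with stimulation in WT. Ex vivo, without stimulation, it was lower in cko than in WT by 0.66 ± 0.15. The 70 tested mitochondrial ribosomal protein genes had 8 lower and 6 higher in WT after stimulation, with a median of 0.01. Among 52 initiation factor genes 17 were lower and 6 higher, with a median of -0.12. In 18 tested regulators of ribosomal protein synthesis, including Mtor and Larp1, 2 were lower and 4 higher in WT, among them Myc and Eif4ebp1, the mTOR-controlled inhibitor of initiation (0.66 ± 0.15). Between genotypes ex vivo, where 1.67% of all tested genes were lower, of the 17 TOP messages Hnrnpa1 alone was lower.

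By annotated start site, 11 of the 13 members with a C and a pyrimidine run were lower in WT after stimulation (median -0.64). Of the 47 tested members with other annotated starts, 35 were lower (median -0.65). The starts used in these cells were not measured, so the split does not compare messages with and without the TOP motif. Between genotypes ex vivo, 3 of the 13 and 5 of the 47 were lower (medians -0.31 and -0.32), as were 2 of 22 members without a promoter sequence (median -0.34). By uniqueness, 22 of 27 tested members with under 20% unique windows were lower in WT (median -0.69), 13 of 23 with 20% to 50% (median -0.64) and 22 of 31 with 50% or more (median -0.61). For the genotype difference ex vivo the counts by uniqueness were 6, 2 and 2, with medians of -0.32 in all 3 classes.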

How the data were processed

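Spleen Treg RNA was depleted of ribosomal RNA, made into strand-specific libraries and sequenced as 51-base paired ends. Going by the study's methods and the labels, the authors aligned reads to mm9 with STAR 2.6.0c and counted them with HTSeq 0.6.1. The authors deposited TPM, a signal normalized to annotated exonic bases, and a log2 value from which whole reads were recovered for 99.9977% of values. The table of the authors' own fold changes and p-values was not used. Genes with a mean of 5 TPM or more in at least 1 group (13318, with 82 of 84 members) were tested. TPM was divided by trimmed-mean factors (30% of ratios and 5% of levels trimmed), and log2(scaled TPM + 1) was fitted with limma 3.58.1 in R 4.3.3, with 4 groups and a mean-variance trend. P-values are two-sided, Benjamini-Hochberg adjusted over all tested genes within a comparison, and called under 0.05. A fold change on this scale understates the change of low genes. Members, lists and tests were chosen with earlier results of these data known. Named were, in each comparison, the 5 highest and 5 lowest members and every member called in a direction with 10 or fewer calls, the 5 with the highest and 5 with the lowest mean TPM, paralog pairs, stalk proteins and Rpsa, 10 members with known roles outside the ribosome or in disease, X-linked members and the 5 least alike. Members named beyond these, Rps10 and, for their change of sign, Rpl14, Rpl32, Rpl37a, Rps14, Rps24 and Rps26, were chosen after their values were seen. Some members that the rule names are not reported here, and they remain in the fits and counts. Promoter sequences are from RefSeq (GRCm38.p6), annotation from GENCODE vM1. Libraries came from individual mice.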

Additional observations from a re-analysis of the deposited data

Results flagged for a closer look

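Rpl27a, a large subunit protein, was lower in every cko than in every WT library ex vivo (14.2, 11.2 and 12.9 against 15.5, 15 and 19 scaled TPM) and higher in every cko library after stimulation (11.2, 9.69 and 10.9 against 8.77, 8.59 and 9.56). The genotype differences thus had opposite signs. The interaction was 0.56 ± 0.16 on the log2 scale, and its adjusted p of 0.122 (limma) missed the threshold. Neither difference was called on its own (-0.35, adjusted p = 0.111, and 0.21, adjusted p = 0.267).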

How the results depend on the processing

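Directions held for most members, and counts of calls moved with the filter and the scaling; the cause was not tested. With genes down to 1 TPM, or with no filter, 0 members were lower between genotypes ex vivo and 0 after stimulation. With stimulation 32 and 30 were lower in WT and 61 and 59 in cko, and 0 were higher in WT or cko. All genes called then numbered 57 and 56 ex vivo, 68 and 68 after stimulation, 1838 and 1694 in WT, and 0 and 0 for the interaction. The member medians became -0.49 and -0.49 (genotype, stimulated), -0.88 and -0.86 (WT), -1.04 and -1.03 (cko), and the interaction median turned to -0.15 and -0.16. With genes above 10 TPM, 19 members were lower ex vivo, 0 between stimulated genotypes, 4 higher in cko and 3 in the interaction (337 of all genes), with medians of -0.52 in WT, -0.30 in cko and 0.25 for the interaction. With TPM as deposited, 0 members were lower in either genotype comparison. With stimulation 16 were lower in WT and 61 in cko, where 49 were lower in the main fit, and 0 were higher in cko. All genes called were 273, 306, 1943 in WT and 67 for the interaction, and the medians -0.085, -0.48, -0.44, -0.84 and, turned, -0.39. Quantile normalization gave 5 lower between stimulated genotypes, 34 lower and 7 higher in WT, 23 lower and 9 higher in cko and 2 higher in the interaction, with 1579 and 392 of all genes called (genotype stimulated, interaction) and medians of -0.26 and -0.11 for stimulation. It turned stimulation changes in WT, among them Rpl32 0.24, Rpl4 0.17, Rpl8 0.43, Rplp0 0.23, Rps14 0.17, Rps15 0.36 and Rps26 0.074. In cko it turned, among others, Rpl14 0.012, Rpl19 0.018, Rpl32 0.063, Rpl37a 0.43, Rpl4 0.14, Rpl8 0.50, Rplp0 0.17, Rps15 0.31, Rps18 0.15, Rps24 0.093, Rps3 0.12 and Rps4x 0.0062. Voom on recovered reads gave 19 and 5 members lower between genotypes, 1203 of all genes ex vivo and 395 for the interaction. A pseudocount of 5 left 1 member lower between stimulated genotypes. The silent receptor median subtracted, an alternative chosen after seeing the data, gave 0 there, 4 higher in cko (median -0.41), 1 higher in the interaction and 277 of all genes. Leaving out each library in turn gave 2 to 9 members lower between genotypes ex vivo (324 to 740 of all genes), 0 to 4 after stimulation (398 to 1057), 43 to 59 with stimulation in WT, 39 to 59 in cko, 0 to 1 higher in WT, 0 to 2 higher in cko, and 50 to 203 of all genes in the interaction. The summed share was 1.5%, 1.49% and 1.71% in WT stimulated and 1.23% and 1.23% in cko stimulated under the 1 TPM, no and, for WT, 10 TPM filters; scaling cannot move a share.

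The labels do not say whether replicate numbers pair the samples, and the residuals did not settle it. Residual correlations of same-numbered libraries were -0.21 to 0.26, and 6 of 12 libraries were closest to their own number. With the replicate block 7 members were lower ex vivo, 1 after stimulation, 58 and 49 with stimulation, 1 higher in cko, and 65 of all genes in the interaction.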
